A study of Homo sapiens with 6 samples.

Results

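The laminin chain genes LAMA1, LAMA3, LAMA4, LAMA5, LAMB1, LAMB2, LAMB3 and LAMC1 were followed in xenograft tumours with and without a knockdown of versican. They are 8 of the 67026 genes in the count table, taken by gene symbol with earlier results of these data known. All 8 passed the filter on low counts that left 16254 genes for testing. They are not the whole laminin family: LAMA2, LAMB4 and LAMC3 are described separately, and LAMB4 did not pass the filter. PC-3, a cell line from a human prostate cancer, was transduced by lentivirus with a hairpin targeting either GFP (shGFP, labelled as knockdown control, 3 tumours) or VCAN, the gene of the matrix proteoglycan versican (shVCAN, 3 tumours). Both groups were selected with 2 μg/mL puromycin. For each mouse 1200000 cells went under the skin in 0.1 mL, of which 50% was Matrigel, a basement membrane extract rich in laminin protein. The hosts were male NSG mice (NOD.Cg-Prkdcscid Il2rgtm1Wjl/SzJ) aged 4 to 5 weeks, and tumour size was followed for 4 weeks. These mice lack T, B and natural killer cells but keep macrophages, vessels and fibroblasts, so RNA of a whole tumour can hold mouse transcripts. The labels number the tumours 1 to 3 in each group and do not give the hairpin sequences.

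Laminins are large secreted glycoproteins, each built of 1 alpha, 1 beta and 1 gamma chain wound into a coiled coil, and they form the sheet of the basement membrane to which epithelial cells attach. The alpha chain carries the globular domains that bind integrins and dystroglycan, and short arms of the chains join laminins into a network. A laminin is named by the numbers of its chains, so laminin-511 holds the products of LAMA5, LAMB1 and LAMC1. Laminin-332 anchors the hemidesmosomes of epithelia such as the prostate basal layer, laminin-511 and laminin-521 are common in mature epithelial and vascular basement membranes, laminin-411 and laminin-421 in vessel walls, and laminin-111 is the early embryonic form.

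Libraries held 11253058 to 13327617 counts. VCAN was lower in every shVCAN tumour than in every shGFP tumour, at 10.6 ± 0.809 CPM (the count of a gene relative to its library total, scaled by the TMM method) in shGFP and 3.66 ± 1.19 CPM in shVCAN (SD, n = 3 each), a log2 fold change of −1.53 (SE 0.207, edgeR adjusted p = 4.59e-07). All 8 markers chosen for PC-3 and epithelial cells passed the filter, and the prostate marker KLK3, which PC-3 is known to lack, had no counts in any library. Messenger RNAs of the mitochondrial genome held 13.3% to 16.2% of the counts in shGFP and 6.39% to 7.63% in shVCAN. Nothing in the labels says whether the tumours of a group came from separate cultures of transduced cells, so the p-values measure the spread between these tumours only.

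Of the 8 chains, 6 fell in shVCAN, LAMA1 rose and LAMC1 was not called. A chain is said to rise or fall at an adjusted p under 0.05 in edgeR's quasi-likelihood test, with Benjamini-Hochberg adjustment over all genes tested. Across those genes 40.3% were called, 21.1% as lower and 19.2% as higher. The 7 called chains also had groups that did not overlap, against 48.7% of all genes tested. The 6 falls lay wholly below the shGFP tumours, as did 24.8% of all genes, and LAMA1 wholly above them, as did 23.9%. The median log2 fold change of the 8 chains (shVCAN over shGFP) was −0.46, and that of all genes tested was 0.0014. The falls were under 2-fold, with log2 fold changes between −0.27 and −0.86. LAMA1 was the 1 chain of the 8 called with a log2 fold change of at least 1 in size, against 5.44% of all genes tested. Counts of the 8 chains together made up 0.280% ± 0.00291 of the library in shGFP and 0.220% ± 0.0152 in shVCAN (SD, n = 3 each).

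**Figure D1:**
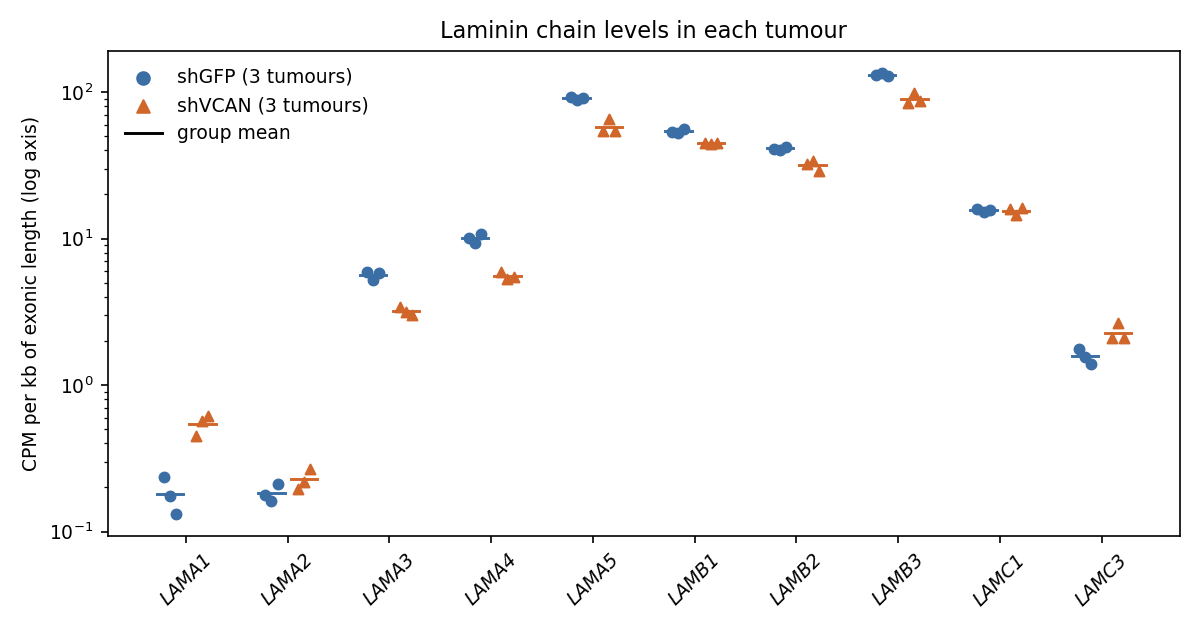
Level of each laminin chain in each tumour, in CPM per kb of exonic length on a log axis, with shGFP tumours as circles, shVCAN tumours as triangles and the group means as lines. LAMB3 and LAMA5 are the highest in both groups, the shVCAN tumours lie below the shGFP tumours in LAMA3, LAMA4, LAMA5, LAMB1, LAMB2 and LAMB3, and above them in LAMA1 and LAMC3. LAMB4 is not drawn because it had no counts in 1 tumour.

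Levels of different genes were compared as CPM per kb of exonic length. In shGFP tumours LAMB3 was the most abundant chain at 131.5 ± 3.52 CPM per kb, followed by LAMA5 at 90.6 ± 2.24, LAMB1 at 54.1 ± 1.58 and LAMB2 at 41.2 ± 0.942. LAMC1, the gamma chain that most laminins share, stood at 15.6 ± 0.380. Below it were LAMA4 at 10.1 ± 0.733, LAMA3 at 5.66 ± 0.365 and LAMC3 at 1.57 ± 0.191, with LAMA2 at 0.183 ± 0.0257 and LAMA1 at 0.181 ± 0.0521. LAMB4 was at 0.0298 ± 0.00865, which is 2 or 3 counts in each shGFP tumour. The tumours' ranges did not overlap between neighbours in this order except for LAMA2 and LAMA1. In shVCAN tumours the order was the same apart from LAMA1, which stood above LAMA2 at 0.543 ± 0.0860 against 0.227 ± 0.0366 CPM per kb with no overlap of their ranges. LAMC1 was at 15.5 ± 0.848 CPM per kb in shVCAN.

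The RefSeq promoter table (build GRCh38.p14) held 7 of the 8 chains, and the 250 bases before each start site were searched on both strands for 5 short motifs. AP-1, a factor of growth and stress signalling, was searched as TGAGTCA and also as TGACTCA. The GC box bound by SP1 was searched as GGGCGG. The TATA box, which sets a start site, was searched as TATAAA. The E box of helix-loop-helix factors was searched as CACGTG. The site of TEAD factors was searched as GGAATG, and none of these strings holds another. The sequences shown are those of 3 chains that fell, LAMA3, LAMB3 and LAMA5, and of LAMC1, which was not called. They are written 5′ to 3′ on the gene's strand, with matches in capitals. The listed start site of LAMA3 lies 183.6 kb inside the gene, at the start of the short LAMA3 transcript, and an exon is annotated over most of its window, so only its AP-1 matches are printed, the first starting 125 and the second 69 bases before the start site.
LAMA3 AP-1 match, chr18:23872885-23872911, + strand: tggcacaggcTGACTCAtgtgtgaagt
LAMA3 AP-1 match, chr18:23872941-23872967, + strand: cttcctcaccTGAGTCAggcaggcccg
LAMB3, the start site farthest downstream of 3 listed, chr1:209651395-209651624, − strand: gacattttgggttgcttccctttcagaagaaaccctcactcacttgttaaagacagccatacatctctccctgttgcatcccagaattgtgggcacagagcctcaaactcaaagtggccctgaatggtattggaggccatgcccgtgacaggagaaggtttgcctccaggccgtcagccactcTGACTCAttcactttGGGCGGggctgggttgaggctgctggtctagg
LAMA5, chr20:62367313-62367562, − strand: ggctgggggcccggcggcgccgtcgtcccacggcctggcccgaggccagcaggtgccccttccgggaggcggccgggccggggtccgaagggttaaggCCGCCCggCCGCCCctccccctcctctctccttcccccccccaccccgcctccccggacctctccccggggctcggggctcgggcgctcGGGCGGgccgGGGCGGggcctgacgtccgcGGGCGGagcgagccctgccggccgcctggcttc
LAMC1, chr1:183023170-183023419, + strand: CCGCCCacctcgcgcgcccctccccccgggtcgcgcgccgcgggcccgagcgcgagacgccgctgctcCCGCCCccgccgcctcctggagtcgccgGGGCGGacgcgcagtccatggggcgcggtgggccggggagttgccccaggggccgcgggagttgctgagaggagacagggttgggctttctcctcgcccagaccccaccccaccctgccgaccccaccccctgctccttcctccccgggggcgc

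Among the laminin windows an AP-1 match was found in LAMA3, which had 2, and in the shown window of LAMB3, which had 1. The LAMB3 windows not shown held no AP-1 match, nor did the window of any other laminin chain searched. Of all 35116 promoter windows 4.2% held one. GC boxes numbered 5 in LAMA5, 4 in LAMB1, 3 in LAMC1 and 1 each in LAMA3, LAMB2 and every window of LAMB3, and 42.6% of all windows held at least 1. LAMA4 had no match to any of the 5 motifs, and no window of the 8 chains held the TATA box, E box or TEAD letters. Of all windows 10.7% held the TATA box letters, 6.34% those of the E box and 11.9% those of TEAD. A match is a run of letters and does not show that a factor binds there.

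Among alpha chains, LAMA5 was by far the most abundant, and it fell. LAMA5 (ENSG00000130702.15, GENCODE 29 on GRCh38, chromosome 20, 62307955 to 62367312) encodes the alpha chain of laminin-511 and laminin-521. Its level in shGFP tumours 1, 2 and 3 was 1314, 1258 and 1313 CPM, and in shVCAN tumours 773.4, 941.2 and 778.8 CPM. The groups did not overlap, and shVCAN tumour 2 stood above the other 2 of its group. The mean was 35.8% lower, a log2 fold change of −0.64 (SE 0.0538, edgeR adjusted p = 4.84e-11). In shVCAN tumour 2 genes of at least 60% GC in their longest transcript lay above the mean of the other 2 shVCAN tumours by a median of 0.107 on the log2 scale, and genes under 45% GC below it by a median of −0.0932. LAMA5 has 66.4% GC. With each tumour's dependence on exonic length and GC content fitted and removed as an offset, the shVCAN tumours had 873.9, 954.5 and 895.2 CPM and the log2 fold change was −0.38 (SE 0.0420, edgeR adjusted p = 1.47e-10).

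LAMA3 and LAMA4 had the largest falls of the 8 chains. LAMA3 (ENSG00000053747.16, chromosome 18, 23689443 to 23956222), the alpha chain of laminin-332, had 87.0, 76.9 and 85.1 CPM in shGFP tumours and 50.3, 46.5 and 44.4 CPM in shVCAN tumours. Every shVCAN tumour lay well under the lowest shGFP tumour, and the mean was 43.3% lower (log2 fold change −0.82, SE 0.0738, edgeR adjusted p = 2.15e-10). Gene counts join the long and the short LAMA3 transcript, so the start site shown above cannot be followed on its own. LAMA4 (ENSG00000112769.20, chromosome 6, 112108760 to 112254939), the alpha chain of laminin-411 and laminin-421 and known from vessel walls, had 117.3, 107.5 and 124.4 CPM in shGFP and 68.0, 61.5 and 63.1 CPM in shVCAN. Its mean was 44.8% lower with no overlap (log2 fold change −0.86, SE 0.0680, edgeR adjusted p = 1.35e-11).

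LAMA1 was the 1 chain of the 8 that rose, from a low level. LAMA1 (ENSG00000101680.15, chromosome 18, 6941744 to 7117814) encodes the alpha chain of laminin-111. The shGFP tumours had 45, 30 and 23 LAMA1 counts and the shVCAN tumours 98, 127 and 134, or 3.75, 2.79 and 2.10 CPM against 7.11, 8.96 and 9.78 CPM. All shVCAN tumours exceeded all shGFP tumours, with a ratio of the means of 2.99 (log2 fold change 1.57, SE 0.226, edgeR adjusted p = 1.42e-06). Genes on the other strand share 11.05% of the exonic bases of LAMA1, and the sources used here do not say whether reads were counted by strand, so some of these counts could belong to them. For the other 7 chains at most 3.57% of exonic bases are shared.

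**Figure D2:**
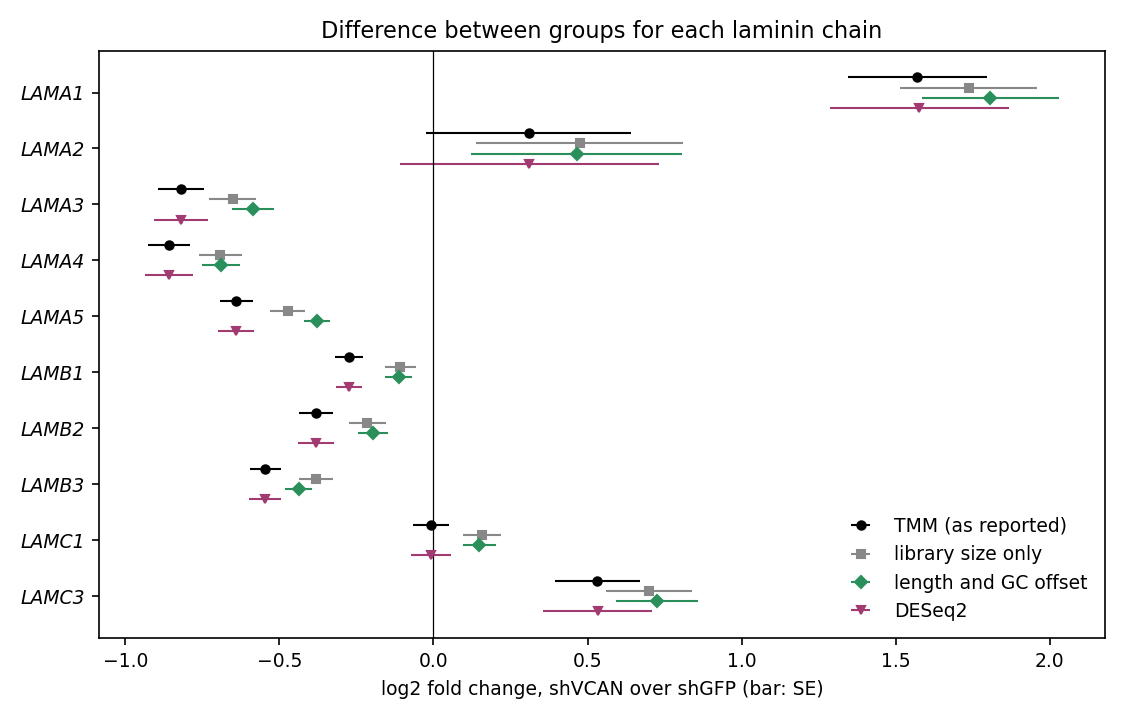
Log2 fold change of each tested laminin chain, shVCAN over shGFP, with bars for the SE, under TMM scaling, scaling by library size only, the length and GC offset, and DESeq2. LAMA3, LAMA4, LAMA5, LAMB1, LAMB2 and LAMB3 lie below 0 and LAMA1 and LAMC3 above 0 by more than the SE in all 4 fits. LAMB1 was not called with library size only. LAMC1 is near 0 in 2 fits and above 0 in the others.

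All beta chains of the 8 fell, in unequal measure. LAMB3 (ENSG00000196878.15, chromosome 1, 209614870 to 209652466), the beta chain of laminin-332, had 610.7, 635.1 and 603.7 CPM in shGFP and 397.5, 460.3 and 408.5 CPM in shVCAN. Its groups did not overlap and the mean was 31.5% lower (log2 fold change −0.55, SE 0.0505, edgeR adjusted p = 3.72e-10). LAMB2 (ENSG00000172037.14, chromosome 3, 49121114 to 49133118), found in laminin-421 and laminin-521, had 282.9, 276.9 and 289.8 CPM in shGFP and 221.3, 231.9 and 198.8 CPM in shVCAN. That was 23.2% lower with no overlap (log2 fold change −0.38, SE 0.0548, edgeR adjusted p = 1.39e-06), and the log2 fold change was −0.21 with library size only. LAMB1 (ENSG00000091136.14, chromosome 7, 107923799 to 108003255), the beta chain of laminin-111, laminin-411 and laminin-511, had 434.2, 431.2 and 454.7 CPM in shGFP and 364.0, 361.5 and 366.0 CPM in shVCAN. The shVCAN tumours lay close together and below all shGFP tumours, 17.3% lower in the mean (log2 fold change −0.27, SE 0.0461, edgeR adjusted p = 1.51e-05). With libraries scaled by their size alone this call was lost, at a log2 fold change of −0.11 (edgeR adjusted p = 0.0817), a setting that raised the median log2 fold change of all genes tested to 0.168 and left 32.2% of genes higher and 11.6% lower.

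The gamma chain LAMC1 did not pass the test. LAMC1 (ENSG00000135862.6, chromosome 1, 183023460 to 183145592) encodes the gamma chain that most laminins share. It had 134.4, 128.0 and 131.6 CPM in shGFP and 133.6, 122.5 and 135.8 CPM in shVCAN, with overlapping groups. The log2 fold change was −0.01 (SE 0.0589, edgeR adjusted p = 0.927), and its 95% interval by a normal approximation ran from −0.12 to 0.11. LAMC1 was called higher with library size only (log2 fold change 0.16, edgeR adjusted p = 0.0357) and after the length and GC offset (log2 fold change 0.15, edgeR adjusted p = 0.0250), under which 19.5% of all genes tested were higher and 19.2% lower.

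Of the other laminin genes, LAMA2, LAMB4 and LAMC3 were followed as well. LAMC3, a gamma chain of restricted distribution, rose from 11.9 ± 1.45 to 17.3 ± 2.45 CPM (log2 fold change 0.53, SE 0.139, edgeR adjusted p = 0.00261). LAMA2, the alpha chain of muscle and peripheral nerve laminins, had 18 to 24 counts in shGFP and 28 to 38 in shVCAN and was not called (log2 fold change 0.31, SE 0.334, edgeR adjusted p = 0.496). LAMB4 had 0 to 6 counts per tumour and was not tested.

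Chains were also read by the laminin they can form. In laminin-411, laminin-421, laminin-511 and laminin-521 the alpha and the beta gene fell and the gamma gene LAMC1 was not called. In laminin-111 the alpha gene rose, the beta gene fell and LAMC1 was not called. These are transcript levels, and no assembled laminin was measured.

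Each alpha and beta chain was also expressed as a share of the summed CPM per kb of its kind. The shares compare levels only. LAMB3 belongs to laminin-332 and LAMB1 and LAMB2 to other laminins, so these beta chains do not all compete for 1 place. The summed alpha level was 106.7 ± 3.29 CPM per kb in shGFP and 67.7 ± 6.45 in shVCAN, a ratio of 0.634. The summed beta level was 226.8 ± 1.99 and 166.4 ± 8.68, a ratio of 0.734. The difference of the beta sums was −60.4 CPM per kb, and −37.8 with library size only. Neither sum overlapped between groups, and an exact two-sided permutation test gave p = 0.1 for each, the smallest that 3 against 3 tumours allow (Benjamini-Hochberg adjusted p = 0.1 over 2 sums). The alpha level over the beta level was 0.470 ± 0.0180 in shGFP and 0.406 ± 0.0171 in shVCAN, also without overlap.

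**Figure D3:**
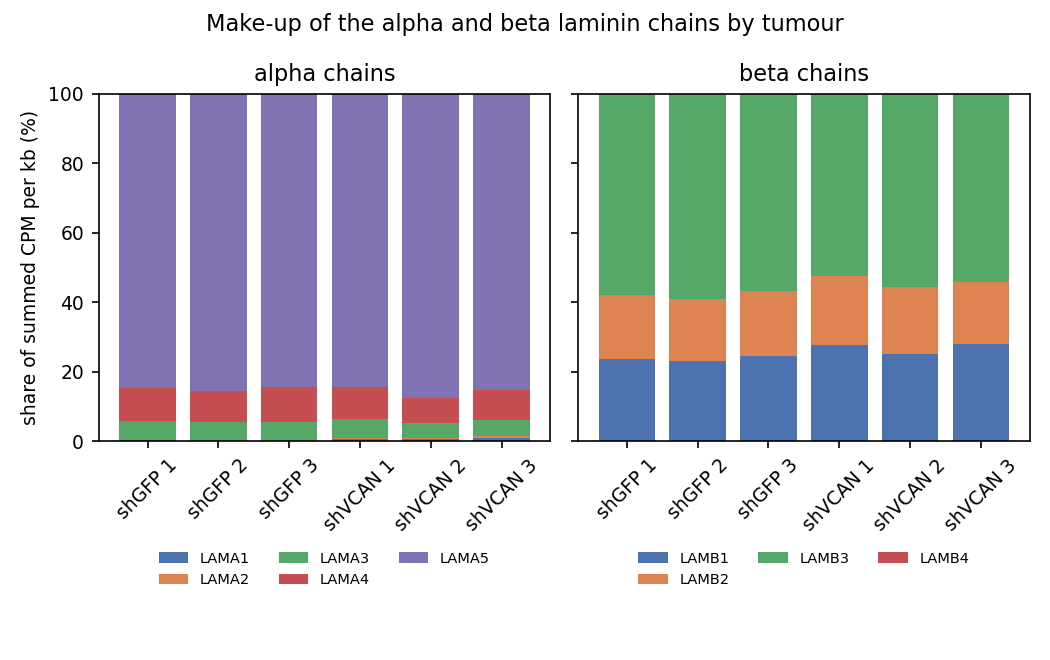
Share of each laminin chain in the summed CPM per kb of the alpha and of the beta chains, with 1 bar per tumour. LAMA5 fills 84.5% to 87.7% of the alpha bar in every tumour, while the LAMB3 part of the beta bar is smaller in all 3 shVCAN tumours than in all 3 shGFP tumours.

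The make-up of the beta chains differed without overlap in LAMB3 and LAMB1, and the shares of the 3 abundant alpha chains overlapped under TMM scaling. The share of LAMB3 went from 58.0% ± 1.22 to 54.1% ± 1.62 and that of LAMB1 from 23.8% ± 0.743 to 26.9% ± 1.51, whereas LAMB2 at 18.2% ± 0.505 and 19.0% ± 0.976 overlapped. LAMA5 held 84.9% ± 0.555 of the alpha level in shGFP and 85.8% ± 1.65 in shVCAN, with overlapping groups (exact two-sided permutation p = 0.6). The share of LAMA4 was 9.42% ± 0.433 and 8.26% ± 1.07 and that of LAMA3 5.30% ± 0.190 and 4.77% ± 0.567, both overlapping. LAMA1 held 0.170% ± 0.0480 and 0.805% ± 0.141 of the alpha level, with no overlap. LAMA2 held 0.172% ± 0.0202 and 0.339% ± 0.0703, also with no overlap, though its CPM overlapped between groups and it was not called. After the length and GC offset the shares of LAMA5, LAMA4 and LAMB2 no longer overlapped between groups, with differences of 1.54 percentage points for LAMA5 in place of 0.885, −1.71 for LAMA4 in place of −1.16 and 1.47 for LAMB2 in place of 0.831 (exact two-sided permutation p = 0.1 each). For the 9 shares tested under TMM scaling, the smallest exact two-sided permutation p was 0.1, the limit of the design, and its Benjamini-Hochberg adjusted value was 0.225.

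Exonic lengths of the 8 chains ran from 4688 bases for LAMB3 to 15872 for LAMA1. All but LAMB3 are longer than 5234 bases, the median of 11560 genes of at least 5 CPM. Across 11560 genes of at least 5 CPM, log2 fold changes fell with exonic length (Spearman −0.275, across genes, which are not independent replicates). Of 2680 such genes with at least 8000 exonic bases, 38% were lower and 12.6% higher in shVCAN. LAMB2, at 6865 bases, and LAMB3 are shorter than 8000 bases and fell. Whether exonic length has a part in the falls was not tested. After the length and GC offset all 6 falls were still called, with log2 fold changes of −0.58 for LAMA3, −0.69 for LAMA4, −0.38 for LAMA5, −0.11 for LAMB1, −0.20 for LAMB2 and −0.44 for LAMB3. LAMA1, the longest of the 8, had 1.81.

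**Figure D4:**
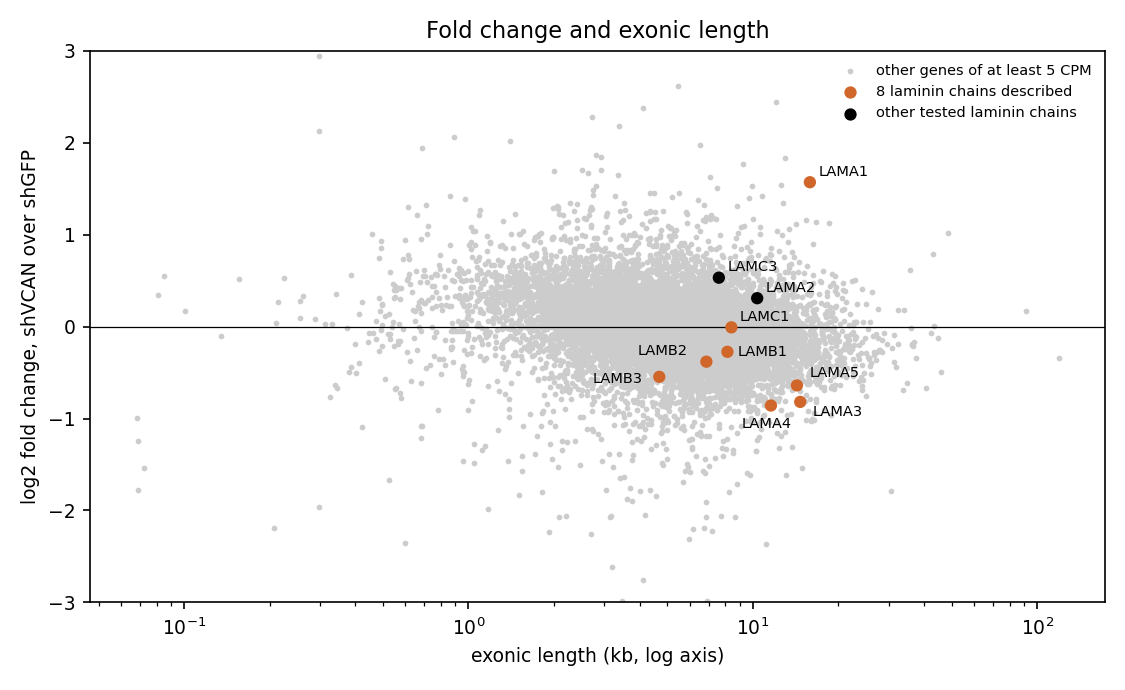
Log2 fold change against exonic length in kb on a log axis, for genes of at least 5 CPM (grey), the 8 laminin chains described (orange) and the other tested laminin chains (black). LAMA3, LAMA4 and LAMA5 lie at the long end below 0 and LAMA1 at the long end above 0, and 3 genes beyond a log2 fold change of 3 in size fall outside the axis.

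Genes with the profile most like that of a chain were sought by Pearson's r of log2 CPM over the 6 tumours, among 11415 named genes of at least 5 CPM. For LAMA1 these were CCDC32 (r = 0.999), CAMK4 (r = 0.997) and MRPS9 (r = 0.997). For LAMA4 they were RNF24 (r = 0.999), DOCK1 (r = 0.998) and TACC1 (r = 0.998). With 6 tumours in 2 groups high values are common: 443 genes reached 0.95 or more with LAMA1 and 946 with LAMA4. Pearson's r does not measure the size of a difference. MRPS9 had only 33.5 ± 1.20 CPM in shGFP and 38.8 ± 0.890 CPM in shVCAN. Its log2 fold change was 0.21 in DESeq2 (adjusted p = 0.122) and 0.0036 after the length and GC offset (edgeR adjusted p = 0.978).

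Receptors for laminin moved in both directions. Of 12 listed receptor genes and close partners, 4 rose, 5 fell and 3 were not called, with a median log2 fold change of 0.043. Across all genes tested 19.2% rose and 21.1% fell. ITGA3, the alpha subunit of the integrin for laminin-332 and laminin-511, fell from 1199.8 ± 43.6 to 656.0 ± 20.8 CPM. ITGA6, which pairs with beta 1 or beta 4 to bind laminins, rose from 126.2 ± 18.6 to 260.5 ± 17.5 CPM, and ITGA7, a laminin receptor subunit known from muscle, from 26.8 ± 0.784 to 57.1 ± 9.19 CPM. RPSA, a ribosomal protein also described as a laminin receptor, rose from 987.2 ± 18.2 to 1704 ± 32.2 CPM. ITGB4, the hemidesmosome subunit, had 190.9 ± 2.49 CPM in shGFP and 185.6 ± 24.1 CPM in shVCAN and was not called. ITGB4 was called higher after the length and GC offset (log2 fold change 0.14, edgeR adjusted p = 0.0267) and lower without shVCAN tumour 2 (log2 fold change −0.15, edgeR adjusted p = 0.0188). DAG1, the gene of dystroglycan, fell from 162.3 ± 3.40 to 138.2 ± 8.37 CPM, a call lost with library size only (edgeR adjusted p = 0.417) and with the offset (edgeR adjusted p = 0.386). The Lutheran glycoprotein BCAM, a receptor for the LAMA5 product, fell from 64.5 ± 7.75 to 29.6 ± 7.77 CPM (log2 fold change −1.12, SE 0.114, edgeR adjusted p = 2.68e-09). BCAM, ITGB4 and DAG1 were chosen for mention after their values were seen. With library size only, or with the length and GC offset, 2 receptor genes fell in place of 5.

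Enzymes that build the laminin-binding sugar chain of dystroglycan were mostly not called. Of 13 listed genes 11 were tested, and LARGE2, which extends that sugar, was the 1 gene called, rising from 8.19 ± 1.50 to 12.9 ± 0.833 CPM. For all genes tested the share called was 40.3%. Library size only gave 5 rises in this list, the length and GC offset and upper quartile factors 3 each, and the replicate block and the fit with no filter 2 each. There were also 2 rises without shGFP tumour 2, without shVCAN tumour 2 or without shVCAN tumour 3, and 1 fall without shGFP tumour 2.

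Partners of laminin in the basement membrane were lower more often than higher. Of 16 listed genes 12 were tested, 8 fell, none rose and 4 were not called, with a median log2 fold change of −0.44. Among all genes tested 21.1% fell and 19.2% rose. With library size only, or with the offset, 3 genes of this list were called higher. The collagen IV chains COL4A1 and COL4A2, which form the second network of the basement membrane, fell by 0.53 and 0.54 on the log2 scale, COL4A1 from 471.3 ± 12.7 to 327.4 ± 1.81 CPM. After the length and GC offset these log2 fold changes were −0.26 for COL4A1 and −0.25 for COL4A2, that of AGRN was −0.44 in place of −0.67, and that of PXDN −0.18 in place of −0.42. AGRN, the gene of the laminin-binding proteoglycan agrin, fell from 782.5 ± 8.48 to 491.1 ± 58.5 CPM, and peroxidasin (PXDN), which crosslinks collagen IV, from 791.0 ± 7.11 to 589.9 ± 13.6 CPM.

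Genes of the hemidesmosome, the anchor that holds laminin-332, were divided. All 7 were tested, and rises numbered 2, falls 3 and uncalled genes 2, while 19.2% of all genes tested rose and 21.1% fell. ITGA6 and COL17A1 were higher and PLEC, COL7A1 and CD151 lower. COL17A1, a transmembrane collagen, had 1.32 ± 0.499 CPM in shGFP and 2.64 ± 0.212 CPM in shVCAN (edgeR adjusted p = 0.0272), a call lost in DESeq2 (adjusted p = 0.0855), without shGFP tumour 1 (edgeR adjusted p = 0.146), without shVCAN tumour 1 (edgeR adjusted p = 0.0824) and without shVCAN tumour 3 (edgeR adjusted p = 0.0815). The falls of plectin (PLEC, edgeR adjusted p = 0.000457) and of the anchoring collagen COL7A1 (edgeR adjusted p = 0.00152) had overlapping groups, and with library size only or with the offset no gene of this list fell, and 1 fell in DESeq2.

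Of 9 listed proteases that cleave laminins or activate plasminogen, 8 were tested, 5 rose and 2 fell. The shares over all genes tested were 19.2% higher and 21.1% lower. Among the rises, TLL1 and TLL2 rest on few counts. TLL1 had 0.759 ± 0.360 CPM in shGFP and 1.80 ± 0.406 in shVCAN, and TLL2 had 0.905 ± 0.453 and 2.53 ± 0.473. TLL1 and TLL2 were chosen for mention after their values were seen. BMP1, which trims the LAMA3 product, fell from 178.1 ± 9.84 to 115.5 ± 7.86 CPM, and the gelatinase MMP2 from 11.9 ± 0.959 to 4.70 ± 0.721 CPM. The plasminogen activators PLAT and PLAU rose: PLAT was at 80.4 ± 7.78 CPM in shGFP and 122.6 ± 2.25 in shVCAN, PLAU at 8253 ± 376.4 and 9843 ± 135.9. The log2 fold change of PLAU was 0.25, and 0.42 with library size only.

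**Figure D5:**
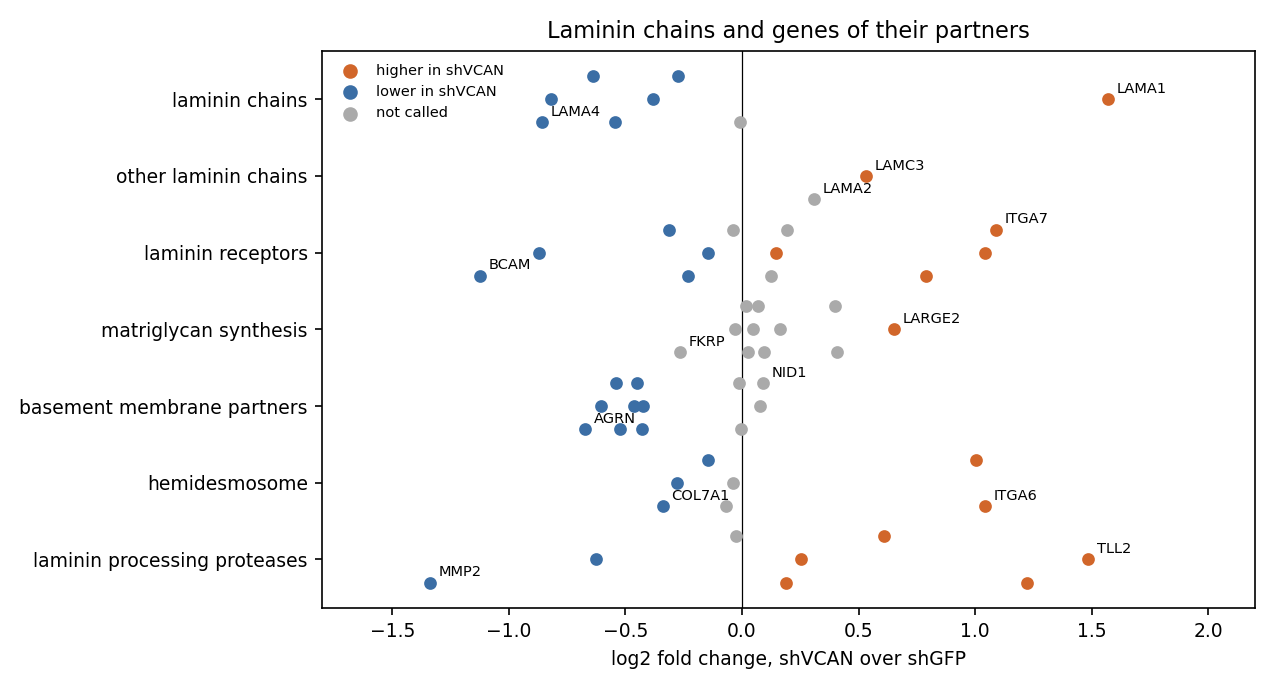
Log2 fold change, shVCAN over shGFP, of every tested gene of the laminin chains, their receptors, the enzymes of the dystroglycan sugar, basement membrane partners, hemidesmosome genes and proteases, with rises in orange, falls in blue and genes not called in grey (height within a row only separates points). Falls outnumber rises among laminin chains and basement membrane partners, and receptors and proteases lie on both sides of 0.

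Markers of other cell types also differed between the groups, and their part in the laminin results was not tested. The counts below stand beside 21.1% lower and 19.2% higher among all genes tested. In bulk tumours fewer cells of a type and less RNA per cell cannot be told apart. Counts on these human genes can also come from the PC-3 cells themselves or from similar mouse reads, and these sources were not separated. The 12 fibroblast and pericyte markers summed to 878.3 to 982.2 CPM in shGFP and 426.1 to 526.8 in shVCAN, with 6 of 9 tested lower and 1 higher, THY1 at 0 in every library and DCN under 1 CPM, and COL1A1 the highest. The 12 endothelial markers summed to 212.3 to 223.5 and 143.4 to 159.6 CPM, with 6 of 7 tested lower, VWF, ERG and CLDN5 under 1 CPM in every tumour and TIE1 the highest. The 8 skeletal muscle markers summed to 211.0 to 370.0 and 156.7 to 236.4 CPM, with 5 of 6 tested lower, TNNT3 at 0 and ACTA1 the highest. The groups did not overlap in 2 of these 6, and the count of lower muscle markers was 2 in DESeq2, where ACTA1 was not called (adjusted p = 0.200), and 3 without shGFP tumour 3. Schwann and nerve markers summed to 156.1 to 166.5 and 125.7 to 145.5 CPM, with 3 of 7 tested lower and 2 higher, SOX10 under 1 CPM and PMP22 the highest. The higher nerve markers numbered 1 in DESeq2, after the offset and without shGFP tumour 3, shVCAN tumour 1 or shVCAN tumour 3. Macrophage markers summed to 5.94 to 9.66 and 4.50 to 6.20 CPM, with 1 of 4 tested lower, CD163 and TYROBP at 0 and ADGRE1 the highest. The lower macrophage markers numbered 0 without shGFP tumour 2, and 2 without shGFP tumour 1, without shVCAN tumour 3, with the replicate block and in limma-voom. Adipocyte markers summed to 6.88 to 10.5 and 21.0 to 22.9 CPM, with FABP4 the 1 call, higher, and ADIPOQ and LEP at 0. FABP4 alone went from 4.45 ± 1.05 to 18.1 ± 0.861 CPM, while CIDEC, which did not pass the filter, had 16, 16 and 3 counts in shGFP and 2, 0 and 2 in shVCAN. In DESeq2, with no filter and in 4 of the 6 fits without 1 tumour, 1 adipocyte marker was called lower. Of 8 keratinocyte markers, which matter here since laminin-332 is a product of basal keratinocytes, KRT10 was the only one tested and rose, KRT1 and DSG3 were at 0, and KRT5, KRT14, LORICRIN and IVL were under 1 CPM in every tumour. TP63, a basal cell factor that did not pass the filter, had 10, 7 and 14 counts in shGFP and 0, 4 and 1 in shVCAN. In DESeq2, with no filter and in 4 of the 6 fits without 1 tumour, 1 keratinocyte marker was called lower. CIDEC and TP63 were chosen for mention after their values were seen. Of the 8 PC-3 and epithelial markers 6 fell, none rose and 2 were not called, with KRT19 the highest at 600.6 ± 25.1 and 575.5 ± 15.2 CPM.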

How the data were processed

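RNA of 6 xenograft tumours was sequenced as paired reads of 150 bases, per the labels' protocols. The submitters' processing notes name Trim Galore, STAR, DESeq2 and hg38 but give no versions and no roles. The authors deposited raw counts per gene with versioned Ensembl identifiers, not normalised. Not given in the sources used here are the counting program, its strand setting and any removal of mouse reads, so host reads similar to human genes may be included. Of 67071 rows, 45 were Y-chromosome duplicates of pseudoautosomal genes, all at 0 counts, and were dropped. Symbols came from a table of identifiers (60370) and GENCODE 29 (289), and 6367 identifiers had none and stayed in the fit. The chi-square per gene between libraries, over genes of at least 50 summed counts, was 3.45 to 6.61 within groups and 48.9 to 83.5 between them, so no 2 libraries agreed within counting noise.

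Groups were compared with edgeR 4.0.16 (quasi-likelihood test, TMM scaling, filterByExpr, group as the only term) in R 4.3.3, with the SE taken as the size of the log2 fold change over the square root of F. The common biological coefficient of variation was 6.63%. Log2 CPM used a prior count of 2. CPM per kb divides by the union of GENCODE 29 exons. In counts simulated from these libraries and tested over 16216 genes, the test recovered 95.2% of changes of 1 and 70.5% of changes of 0.5 on the log2 scale. Those changes were put in 105 and 95 genes. The simulation used the same dispersion for every gene and no trend with length or GC, so it does not give the power of the real comparison. The alternatives were other scalings (DESeq2 size factors, upper quartile, library size only, TMM without the 13 mitochondrial messenger RNAs), other filters, DESeq2 1.42.0, limma-voom 3.58.1, the replicate number as a block, a length and GC offset fitted with mgcv 1.9.3 on genes of at least 4 CPM, each tumour left out, and stricter thresholds. Sums and shares are given for alpha and beta chains. Coding length for the shares was added after seeing the data.

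The chains and lists were chosen with earlier results of these data known. Genes named are the laminin chains (1 is not reported here), VCAN, up to 4 called members with the smallest p of each partner list, the highest marker and those at 0 of each cell type list, and 3 genes most like the chain with the largest rise and fall. Any counting error leaves out the variation from amplification.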

Additional observations from a re-analysis of the deposited data

How the results depend on the processing

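Under all 16 other scalings, filters, tests, designs and left-out tumours, LAMA1 stayed higher and LAMA3, LAMA4, LAMA5, LAMB2 and LAMB3 lower, each past the threshold, and LAMB1 lost its call with library size only. The counts of called chains, 1 higher and 6 lower, were the same with the replicate block (1 and 6) and without any single tumour. Same-numbered tumours showed no shared deviation: deviations from the group means correlated at 0.0176, 0.0157 and −0.0271 between them. These values cannot show whether same-numbered tumours were handled together. The replicate block gave 3083 higher and 3428 lower genes in place of 3120 and 3425. With library size only, and with the length and GC offset, 2 chains were higher, LAMC1 being the second. A log2 fold change of at least 1 left 0 lower chains, and 450 higher and 435 lower genes overall. Library size only gave 5228 higher and 1890 lower genes, so 73.4% of calls were higher in place of 47.7%.

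LAMC1 changed sign with library size only (0.16), the offset (0.15), upper quartile factors (0.031) and no filter on low counts (0.0093), and ran from −0.038 to 0.037 with 1 tumour left out (0.015 without shGFP tumour 1, 0.037 without shVCAN tumour 2). With library size only PMP22 (0.013), KRT19 (0.10), TMPRSS2 (0.052) and ITGB4 (0.13) lay above 0, and with the offset TMPRSS2 (0.025) and ITGB4 (0.14, called higher). ITGB4 ran from −0.152 (without shVCAN tumour 2, called lower) to 0.014, with 0.011 and 0.014 without shVCAN tumours 1 and 3. With 1 tumour left out the difference in share ran from −0.035 to 1.56 percentage points for LAMA5 and from −0.0003 to 0.0168 for LAMB4, the lowest values being those without shVCAN tumour 2. The causes were not tested. Lengths of RefSeq proteins were not used for the shares. LAMA1, LAMA2 and LAMB4 rest on few counts, so their levels carry the most counting error.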
